A study of Mus musculus with 2 samples.

Results

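Cholangiocyte genes were examined as a set of 6 genes, Spp1, Epcam, Krt19, Krt7, Sox9 and Cftr, taken by their symbols from the 19465 genes counted in spatial transcriptomics of mouse liver. All 6 symbols were found, each in 1 entry. The tissue came from 1 mouse of genotype AEG-1-WT and 1 of genotype AEG-1-C75S, both untreated females of 8 weeks and littermates from matings of heterozygotes. AEG-1-C75S mice carry a CRISPR/Cas9 knock-in that replaces cysteine with serine at residue 75 of AEG-1 (gene Mtdh), the residue at which the protein is palmitoylated, and AEG-1-WT mice carry the unedited gene. The genotypes are called WT and C75S. The knock-in is in the germline, so every cell type carries it, and 1 section of 5 μm was measured per genotype. RNA was counted as unique molecular identifiers (UMIs) on barcoded spots, and each spot covers a small region that can hold several cells. The 6 genes are therefore described as signals of regions, not of single cells. The spots kept, those with at most 50000 UMIs, numbered 2309 in the WT section (42246988 UMIs, median 16830 per spot) and 2163 in the C75S section (41674347 UMIs, median 18808). Mtdh had 3143 UMIs in WT and 3056 in C75S, and the probes do not read the edited codon, so the genotype labels were not checked by it.

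Cholangiocytes are the epithelial cells that line the bile ducts. In the liver lobule the ducts run in the portal tracts, beside the branches of the portal vein and the hepatic artery and within a sheath of fibroblasts and matrix, whereas the central veins lie at the other end of the lobule axis. Cholangiocytes modify bile by moving chloride, bicarbonate and water, and are told from hepatocytes by keratins, adhesion molecules and a small group of transcription factors. Because ducts fill a small part of the tissue, duct cells lie under few spots of a section. Their genes need not be so confined, and Spp1 was met on 51.4% of WT spots and 52.2% of C75S spots.

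The 6 genes lie apart in the genome (build GRCm38.p6, the same assembly as mm10, matched by symbol to RefSeq). Spp1 is at chr5:104435111-104441053, Epcam at chr17:87635979-87651127, Krt7 at chr15:101412403-101427806 and Cftr at chr6:18170687-18322770. Krt19 (chr11:100140810-100145926) and Sox9 (chr11:112782210-112787757) share a chromosome. Since the genes shared spots, as described for the co-detection of the members, the 250 bases before the annotated start were read for Spp1, Epcam and Krt7, all on the plus strand. Upstream sequences of Krt19, Sox9 and Cftr are not shown here. Capitals mark matches to any of 5 motifs searched on both strands. The TATA box was searched as TATAAA. The core of SOX factors was searched as ACAATG and that of TEAD factors as GGAATG. The core of RBPJ, the DNA-binding partner of Notch, was searched as TGGGAA, and the AP-1 element as TGANTCA.
Spp1: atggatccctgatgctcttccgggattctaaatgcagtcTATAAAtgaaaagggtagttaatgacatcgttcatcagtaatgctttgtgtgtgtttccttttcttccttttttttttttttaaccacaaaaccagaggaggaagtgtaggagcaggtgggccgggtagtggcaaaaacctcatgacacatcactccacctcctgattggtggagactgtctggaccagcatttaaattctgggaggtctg
Epcam: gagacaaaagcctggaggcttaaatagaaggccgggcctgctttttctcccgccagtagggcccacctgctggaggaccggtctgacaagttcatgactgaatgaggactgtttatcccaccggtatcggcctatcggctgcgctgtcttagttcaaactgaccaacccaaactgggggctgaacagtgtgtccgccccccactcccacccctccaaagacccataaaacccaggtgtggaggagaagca
Krt7: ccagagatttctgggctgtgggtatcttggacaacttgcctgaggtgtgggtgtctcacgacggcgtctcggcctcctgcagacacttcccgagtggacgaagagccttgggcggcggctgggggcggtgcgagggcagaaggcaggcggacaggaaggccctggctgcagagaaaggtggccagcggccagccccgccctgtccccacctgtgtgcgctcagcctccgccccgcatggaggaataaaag
The Spp1 window (chr5:104434861-104435110) held 1 match to the letters TATAAA, which begins 211 bases before the start. In windows of the same length across 32851 RefSeq promoters, 12.4% held such a match at any position. The Epcam window (chr17:87635729-87635978) and the Krt7 window (chr15:101412153-101412402) held none of the 5 motifs. The motifs met in none of the 3 windows occurred in 10.7% (SOX), 12.6% (TEAD), 21.6% (RBPJ) and 6.75% (AP-1) of promoters. GC content was 43.6% for Spp1, 56.4% for Epcam and 66% for Krt7. These matches describe letters in these windows and nothing about binding.

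Spp1, the gene of osteopontin, a secreted phosphoprotein of the extracellular matrix, had 4558 UMIs in WT. Scaled to 1000000 UMIs of the section (CPM), this is 107.9 (95% exact Poisson interval 104.8 to 111.1). It had 3352 UMIs in C75S (80.4 CPM, 77.7 to 83.2). All intervals given here cover counting error only, because there was 1 section per genotype. Spp1 was met on 1187 WT spots (51.4%, exact binomial interval 49.3 to 53.5) and 1130 C75S spots (52.2%, 50.1 to 54.4). It was thus on about as many spots in both sections, while the sum differed. Most of those spots held little, with 555 and 544 spots at a single UMI, whereas the highest spots held 76 and 100 UMIs. UMI sums of different genes depend on their probes and were not ranked against each other.

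The remaining genes were sparse. Epcam, an adhesion molecule of epithelia, had 262 UMIs on 188 spots in WT (6.20 CPM, 5.47 to 7.0) and 188 UMIs on 160 spots in C75S (4.51 CPM, 3.89 to 5.20). Sox9, a transcription factor of the biliary lineage, had 406 UMIs on 312 spots (9.61 CPM, 8.70 to 10.6) and 370 UMIs on 301 spots (8.88 CPM, 8.0 to 9.83). For both of these genes the highest spot of each section held 7 UMIs. Krt7 and Krt19 encode the keratins 7 and 19 of simple epithelia, which form the filaments of duct cells. Krt7 had 163 UMIs on 131 spots in WT (3.86 CPM, 3.29 to 4.50) and 77 on 65 spots in C75S (1.85 CPM, 1.46 to 2.31), and Krt19 had 62 UMIs on 49 spots (1.47 CPM, 1.13 to 1.88) and 38 on 37 spots (0.912 CPM, 0.645 to 1.3). Cftr, the chloride channel of the apical membrane, was close to the limit of detection, with 9 UMIs in WT (0.213 CPM, 0.0974 to 0.404) and 6 in C75S (0.144 CPM, 0.0528 to 0.313), each on a spot of its own. A count of 0 in a whole section allows 3 UMIs, or 0.0710 CPM in WT and 0.0720 in C75S.

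The first comparison set the C75S section against the WT section, the question of the study being what the loss of the palmitoylated residue changes in the liver. All 6 genes had a lower level in C75S. Krt7 differed most, with a log2 ratio of -1.06 (interval -1.47 to -0.66), a level 2.09-fold lower. Spp1 was 1.34-fold lower (log2 ratio -0.42, -0.49 to -0.36), Epcam 1.37-fold (-0.46, -0.74 to -0.18) and Krt19 1.61-fold (-0.69, -1.31 to -0.08). The intervals of Sox9 (-0.11, -0.32 to 0.09) and Cftr (-0.57, -2.34 to 1.09) included 0, so a difference was not detectable at this depth for these genes. The median log2 ratio of the 6 genes was -0.51, against -0.05 over the 11248 genes that reached 100 UMIs in the pooled sections, of which 59.6% were lower in C75S. By a fixed log2 difference of at least 0.32, 4 of the 5 genes of the set with that many UMIs were lower and Sox9 was not, while 13.0% of the 11248 genes were lower and 6.47% higher by that size. Cftr, with 9 and 6 UMIs, was not counted. With equal weight per spot Spp1 was at -0.28 and Epcam at -0.14, short of that size, while Krt19 (-0.55) and Krt7 (-1.05) passed it. The comparison is between 2 sections and not between genotypes, since there is no replicate, and fewer cholangiocytes cannot be told apart from less RNA per cholangiocyte.

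Lists of duct genes and of other cells were compared between the sections in the same way. Of 16 biliary structure genes with enough UMIs, 12 were lower in C75S by that size (median log2 ratio -0.57), and the summed level of the list was 672 CPM in WT and 584 CPM in C75S. Of 12 portal fibroblast matrix genes, 9 were lower and 1 higher (median -1.08, summed 349 and 270 CPM), and of 5 smooth muscle genes 4 were lower (median -1.27, summed 50.5 and 25.7 CPM). Acta2, the actin of smooth muscle, had 396 UMIs in WT and 37 in C75S. Transport and receptor genes of the duct had a median of -0.18, with 1 of 7 lower, and regulators of the biliary lineage a median of -0.10, with 2 of 12 lower and 1 higher. Vessel endothelium was lower for 2 of 5 genes (median -0.11), periportal hepatocyte genes for 2 of 6, pericentral hepatocyte genes for 1 of 5, and 5 of 6 Kupffer cell genes were higher (median 0.43). MHC class II and leukocyte genes had 0 of 6 lower and 1 higher (median 0.02), stellate cell genes 1 of 6 lower and 2 higher (median 0.09), and lipid-associated macrophage genes 0 of 4 lower and 2 higher (median 0.35). Mesothelium, the lining of the liver surface, was near 0, with 124 and 79 UMIs over 7 genes, and Upk3b, Upk1b, Wt1 and Muc16 had no UMI in WT, as Wt1 had none in C75S. How much duct and portal tract each section held was not measured, and its part in the difference of the 6 genes was not tested.

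The sections were next compared by the company a gene had on the spot. For each gene, spots were split by how many of the other 5 genes had a UMI there, so that the gene itself did not choose the spots. On spots with none of the others, Spp1 was at 51.1 CPM in WT (1788 spots) and 48.4 CPM in C75S (1680 spots), a log2 ratio of -0.08 (-0.18 to 0.02). On spots with at least 2 of the others it was at 731 CPM (117 spots) and 522 CPM (70 spots), a log2 ratio of -0.49 (-0.60 to -0.37). On spots with 1 of the others, Spp1 was at -0.21 (-0.34 to -0.08) over 404 WT and 413 C75S spots. Krt7 was at -0.64 in this class (-1.31 to 0.0072). Epcam (0.13), Krt19 (0.05), Sox9 (0.21) and Cftr (-0.05) had intervals that included 0 in it. The interval of Spp1 thus included 0 on spots without other duct genes and lay below 0 in both classes with them. The classes depend on detecting a UMI, and the C75S spots were deeper. For Spp1 the median depth with at least 2 others was 19556 UMIs in WT and 24118 in C75S. With none of the others it was 16460 and 18078. The part of depth in these ratios was not tested. The intervals of Epcam, Krt19, Krt7 and Sox9 on spots with none of the others all included 0 (log2 ratios 0.20, 0.45, 0.10 and -0.24). Krt19 rested there on 7 UMIs in WT and 9 in C75S, and Krt7 on 11 and 11. The Krt7 interval of -1.25 to 1.45 also held its value over all spots, -1.06. On spots with at least 2 of the others the log2 ratio was -1.10 for Epcam (-1.52 to -0.70), -1.60 for Krt19 (-2.63 to -0.67), -1.67 for Krt7 (-2.30 to -1.09), and -0.35 for Sox9 (-0.74 to 0.04). For Cftr, which had no UMI on 977 WT spots with none of the others, it was -0.99 on spots with at least 2 (-3.17 to 0.91). Leaving out all spots with at least 3 of the 6 genes, 113 in WT and 66 in C75S, turned the median log2 ratio from -0.51 to 0.12. These spots are chosen by the counts of the 6 genes and are more numerous in WT, so leaving them out raises the ratio by construction. Without them Krt7 was at -0.50 and Spp1 at -0.09, while Epcam was at 0.13, Krt19 at 0.17, Sox9 at 0.12 and Cftr, on few UMIs, at 0.98.

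**Figure D1:**
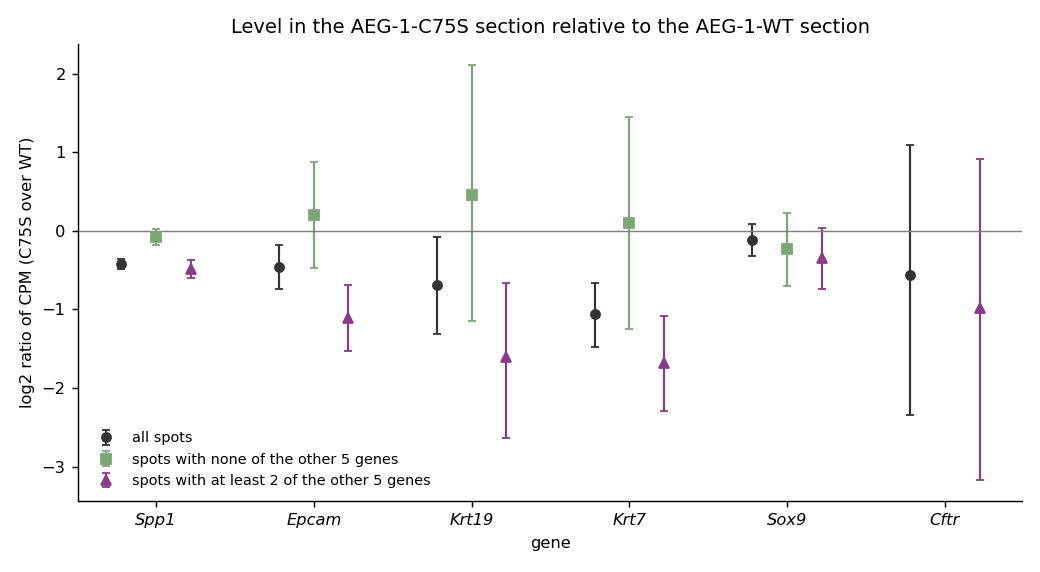
Log2 ratio of CPM of the C75S section over the WT section for each gene, over all spots (circles), on spots with none of the other 5 genes (squares) and on spots with at least 2 of them (triangles). Bars are 95% exact binomial intervals for counting error. On spots with none of the others all drawn intervals cross 0, Cftr having no value there. On spots with at least 2 the values run from -0.35 to -1.67, and the intervals of Sox9 and Cftr also cross 0.

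Most of the UMIs of each gene lay on a small share of the spots. In WT, 50% of the Spp1 UMIs lay on 105 spots, of the Sox9 UMIs on 109, of the Epcam UMIs on 57, of the Krt7 UMIs on 50 and of the Krt19 UMIs on 18. In C75S these numbers were 132, 116, 66, 27 and 18. The highest 5% of spots by a gene's own UMIs held 52.3% of Spp1 (50.8 to 53.8) in WT and 46.7% (45.0 to 48.5) in C75S. They held 72.5% and 72.9% of Epcam, 51.7% and 48.1% of Sox9 and, for Krt7, 90.8% in WT. The value of 100% for Krt19 and Cftr in both sections and for Krt7 in C75S follows from their having a UMI on fewer spots than the 116 or 109 that make up 5%.

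Sparse genes pile on few spots by counting alone, so the spread was also measured against it. The excess squared CV is the variance between spots beyond that of Poisson counts at the depth of each spot, divided by the squared mean, and is 0 for a gene spread evenly. It was 5.86 for Spp1, 7.05 for Epcam, 8.67 for Krt7 and 2.37 for Sox9 in WT, where 3.18% of 10440 genes with at least 100 UMIs reached 1. In C75S it was 5.57 for Spp1, 4.05 for Epcam and 1.62 for Sox9, where 1.26% of 10309 genes reached 1. These were the genes of the set with at least 100 UMIs in the section, 4 in WT and 3 in C75S. Krt7 in C75S (9.82) and Krt19 (21.8 and 1.51) were above 1 on fewer UMIs, and Cftr was below 0 in both sections (-0.77 and -0.25), with no spot above 1 UMI. Without the 3 highest spots of each gene, Krt19 dropped to 8.54 in WT and to -0.97 in C75S, Krt7 to 3.66 and 3.85, Epcam to 4.41 and 1.33, and Sox9 in C75S to 0.90, so these values rest in large part on those spots.

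**Figure D2:**
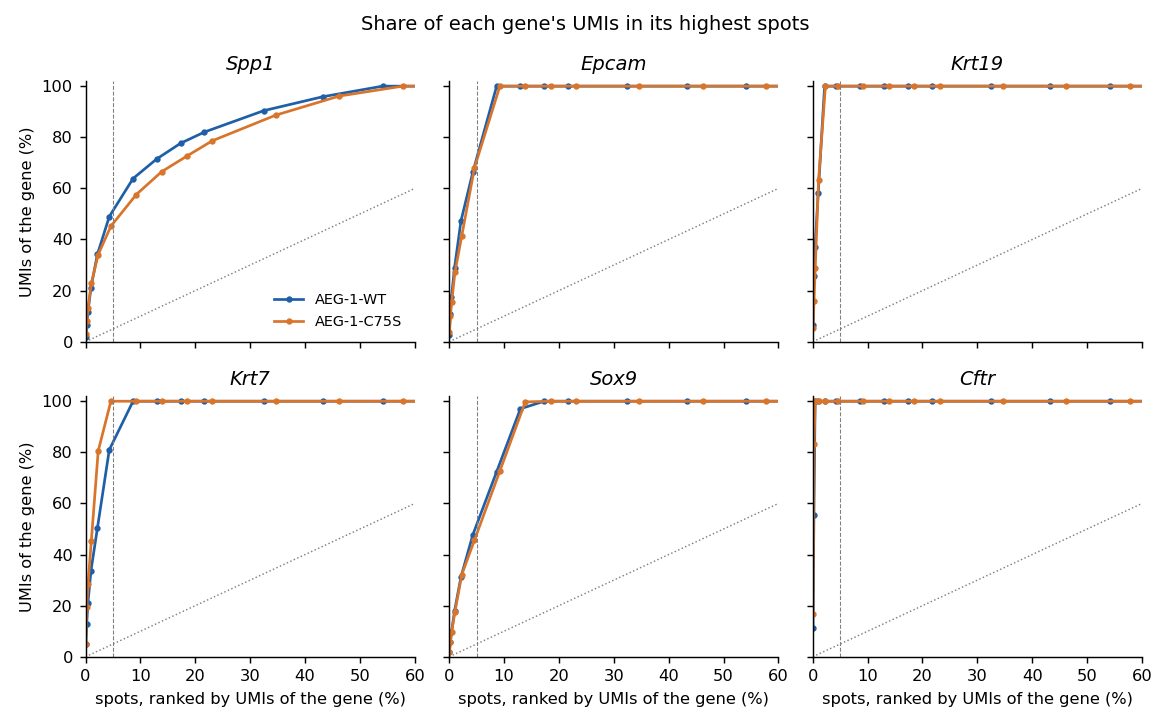
Cumulative share of a gene's UMIs (vertical, %) on its highest spots (horizontal, % of the spots of the section, ranked by the gene's UMIs) in WT (blue) and C75S (orange). The dotted line is an even spread and the dashed line marks 5% of spots, where Spp1 reaches 52.3% and 46.7%; the flat parts at 100% begin where no further spot has a UMI.

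Most spots with many Spp1 UMIs also had other genes of the set. Among WT spots without Spp1, 145 of 1122 (12.9%, 11.0 to 15.0) had a UMI of at least 1 of the other 5 genes, and the share was 16.8% (13.7 to 20.1) of 555 spots with 1 Spp1 UMI. It was 36.3% (29.3 to 43.8) of 179 spots with 3 to 4, 84.6% (73.5 to 92.4) of 65 spots with 10 to 19, and 95.3% (84.2 to 99.4) of 43 spots with 20 or more. In C75S the shares ran from 12.9% of 1033 spots without Spp1 through 22.8% of 544, 38.8% of 178 and 80% of 30 to 92.3% (74.9 to 99.1) of 26 spots with 20 or more. The summed level of the other 5 genes was higher along the same classes, from 8.43 to 231 CPM in WT and from 8.01 to 152 CPM in C75S. Median depth went from 15894 to 20378 UMIs per spot in WT and from 17519 to 25968 in C75S. At least 2 of the other genes were met on 88.4% (74.9 to 96.1) of the WT spots with 20 or more Spp1 UMIs and on 65.4% (44.3 to 82.8) of the C75S spots. The reverse did not hold, since many spots with another gene were not rich in Spp1. Of such spots, 145 in WT and 133 in C75S had no Spp1, against 41 and 24 with 20 or more Spp1 UMIs.

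**Figure D3:**
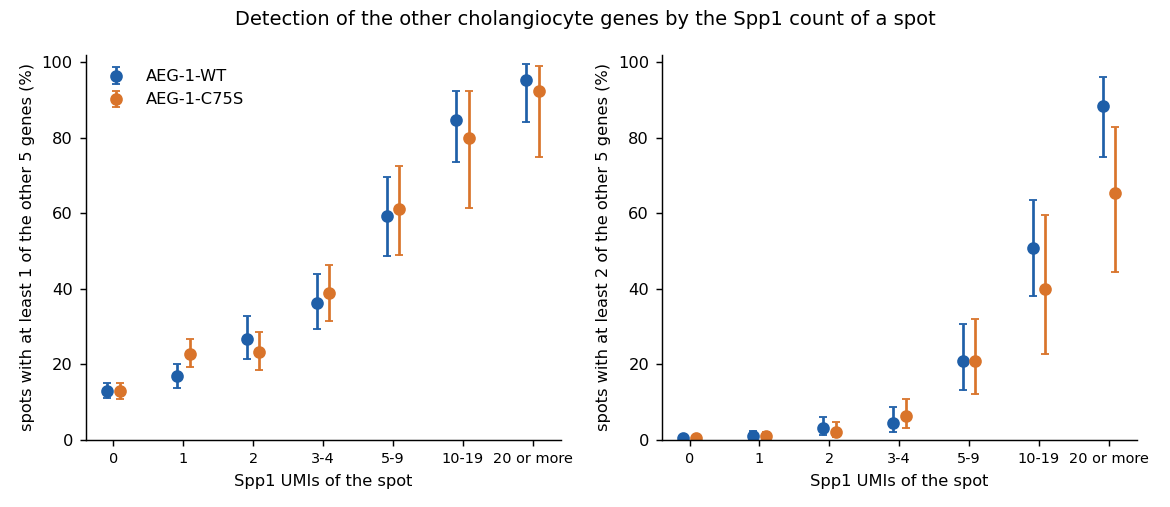
Share of spots (vertical, %) with a UMI of at least 1 (left) and at least 2 (right) of Epcam, Krt19, Krt7, Sox9 and Cftr, by the number of Spp1 UMIs on the spot (horizontal), in WT (blue) and C75S (orange) with 95% exact binomial intervals. Spots with 20 or more Spp1 UMIs had at least 1 of the others in 95.3% and 92.3% of cases, against 12.9% of spots without Spp1 in both sections.

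Co-detection was then counted over all 6 genes. In WT, 977 spots had none, 951 had 1, 268 had 2, 75 had 3, 27 had 4, 10 had 5 and 1 had 6 of them. In C75S these numbers were 900, 909, 288, 53, 10, 3 and 0, and a count of 0 there allows up to 0.139% of spots. Spots with at least 3 of the genes, called duct-gene spots from here on, made up 4.89% of WT spots (113 of 2309, 4.05 to 5.85) and 3.05% of C75S spots (66 of 2163, 2.37 to 3.87). They held 43.5% of the UMIs of the 6 genes and 6.08% of all UMIs in WT, and 26.4% and 3.70% in C75S. They were deeper than other spots, with medians of 19656 against 16709 UMIs in WT and 24282 against 18725 in C75S. After every spot was thinned to 5000 UMIs, 21 duct-gene spots remained in WT (0.912% of 2303, 0.565 to 1.39) and 11 in C75S (0.513% of 2146, 0.256 to 0.915). The number of duct-gene spots that unrelated detection of the genes would give was not computed. Spp1 alone was met on 51.4% of WT spots and 52.2% of C75S spots. The name refers to the genes counted, and whether these spots held duct was not tested.

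The richest spots show the pattern in single places. The 1 spot with all 6 genes, in WT, held 76 UMIs of Spp1, 7 of Epcam, 4 of Krt19, 8 of Krt7, 7 of Sox9 and 1 of Cftr among 14765 UMIs, and no other WT spot among those kept had as many Spp1 UMIs. The 10 WT spots with 5 of the genes held 14 to 47 Spp1 UMIs, and the 3 such spots of C75S held 49, 39 and 21. The total UMIs of these spots ran from 11903 to 25181 in WT and from 8715 to 48756 in C75S. The median was 19654 for the 10 WT spots and 34525 for the 3 C75S spots, against 16830 and 18808 over the spots kept. By these medians they were deeper than the section, though not all of them were deep.

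Pairs of genes were met together more often than the depth of the spots gives. For each of the 15 pairs, the number of spots with both was set against the number expected from the shares within 10 classes of spot depth. Intervals of these ratios are exact Poisson for the shared spots and take the expected number as fixed. In WT all 15 pairs were above it, with a median ratio of 2.56, and the lower bound of the interval was above 1 for 14 of them, Spp1 with Cftr being the exception (9 spots, ratio 2.04, 0.935 to 3.88). In C75S 13 pairs were above it, with a median ratio of 1.72, and 9 had a lower bound above 1. Above it there with an interval that included 1 were Spp1 with Krt19 (0.831 to 1.81) and Spp1 with Cftr (0.560 to 4.02). The same held for Krt19 with Sox9 (0.532 to 2.43) and Sox9 with Cftr (0.923 to 13.1). The pairs not above it there were Krt19 with Cftr and Krt7 with Cftr, which had no spot in common where 0.0832 and 0.185 were expected. Epcam and Krt7 shared 49 WT spots where 12.5 were expected (ratio 3.91, 2.90 to 5.17) and 12 C75S spots where 5.47 were expected (2.20, 1.13 to 3.83). Epcam and Krt19 shared 20 spots in WT (4.33, 2.65 to 6.69) and 8 in C75S (2.41, 1.04 to 4.75). Epcam and Sox9 shared 65 (2.25, 1.74 to 2.87) and 47 spots (1.89, 1.39 to 2.51). Of the 131 WT spots with Krt7, 90.8% (84.5 to 95.2) also had Spp1, against 49.0% of the spots without Krt7.

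Levels were then compared on the same split of spots. On spots with at least 2 of the other genes, Spp1 was 14.3-fold higher than on spots with none of them in WT (731 against 51.1 CPM) and 10.8-fold higher in C75S (522 against 48.4 CPM). The fold was 20.9 for Krt7 in WT (13.8 against 0.659 CPM) and 6.10 in C75S, 12 and 2.90 for Krt19, 10.5 and 4.27 for Epcam, and 5.59 and 5.17 for Sox9. All of these intervals lay above 0 on the log2 scale. Cftr had 8 of its 9 WT UMIs on spots with at least 2 of the others (0.976 CPM, 0.421 to 1.92). It had none on spots with none of them. Set against 3 UMIs, the level is 5.36-fold higher, a value that leaves out the counting error of the 8 UMIs. In C75S Cftr had 4 of 6 UMIs on spots with at least 2 of the others and 1 on spots with none. The interval of that fold included 1. Spots with none of the other 5 genes held 35.4% of the Spp1 UMIs in WT and 44.8% in C75S. Those Spp1 UMIs were met on 811 of 1788 WT spots and 780 of 1680 C75S spots, at most 23 and 25 to a spot. A single Spp1 UMI therefore did not mark a duct-gene spot.

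The lobule axis was read from 2 hepatocyte enzymes that are no members, Cyp2f2 of the portal side and Cyp2e1 of the central side. Spots were ranked within each section by Cyp2f2 over Cyp2e1, with 1 UMI added to each, and cut into 5 axis bins of equal size, bin 1 being the most portal by this ratio. Spp1 went from 219 CPM in bin 1 through 178, 76.6 and 44.1 to 25.6 CPM in bin 5 of WT, and through 127, 144, 47.2, 49.3 and 30.9 CPM in C75S. Bin 1 was thus 8.57-fold above bin 5 in WT (log2 ratio 3.10, 2.89 to 3.32) and 4.10-fold in C75S (2.04, 1.84 to 2.24). Spp1 was met on 61.9% of bin 1 spots and on 30.6% of bin 5 spots in WT, and on 57.7% and 37.3% in C75S. Bin 5, lowest in Cyp2f2 over Cyp2e1, serves as the comparison, and distance to portal tracts was not measured. At median depths of 15861 and 16078 UMIs per spot in WT and 17810 and 18164 in C75S, no spot of bin 5 held more than 5 and 6 Spp1 UMIs.

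The other genes lay along the same axis. In WT, bin 1 was 8.21-fold above bin 5 for Epcam (13.4 against 1.64 CPM), 12.4-fold for Krt7 (7.79 against 0.630), 7.58-fold for Sox9 (19.1 against 2.52) and 5.65-fold for Krt19 (2.14 against 0.378). In C75S these folds were 6.26 (8.22 against 1.31 CPM), 4.87 (3.49 against 0.716), 4.07 (14.6 against 3.58) and 2.30 (1.37 against 0.597), and only the last had an interval that included 1. Krt19 was highest in bin 2 of both sections (3.11 and 1.80 CPM), as Spp1 was in C75S, but the Krt19 intervals of bins 1 and 2 overlapped. Cftr had 8 of its 9 WT UMIs in bin 1 (1.01 CPM, 0.434 to 1.98) and none in bin 5. Set against 3 UMIs, bin 1 is 2.66-fold higher, without the counting error of the 8 UMIs. In C75S Cftr had 3 of 6 UMIs in bin 1 and 1 in bin 5, for which no fold is given. Of genes with at least 100 UMIs, 1.84% in WT and 1.09% in C75S were at least 2-fold higher in bin 1, and the median log2 ratio of all genes so tested was -0.12 and -0.09. The median of the set was 2.98 in WT over 6 genes, Cftr at its value against 3 UMIs, and 2.04 in C75S over 5. That the WT folds are the larger ones was not tested, with 1 section each. Duct-gene spots numbered 51, 47, 14, 0 and 1 from bin 1 to bin 5 in WT and 31, 28, 3, 3 and 1 in C75S, so 86.7% and 89.4% of them lay in bins 1 and 2.

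**Figure D4:**
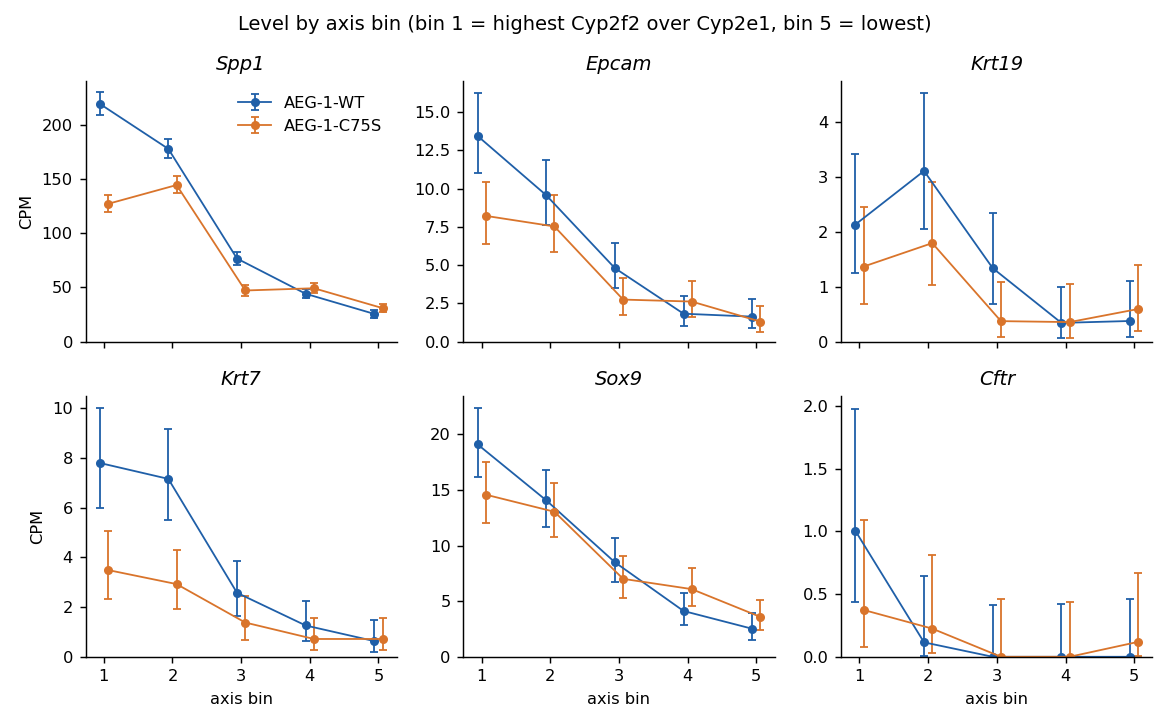
Level of each gene (vertical, CPM, each panel on its own scale from 0) in axis bins of spots ranked by Cyp2f2 over Cyp2e1 (horizontal, bin 1 the highest) in WT (blue) and C75S (orange), with 95% exact Poisson intervals. Spp1 goes from 219 to 25.6 CPM in WT and from 127 to 30.9 CPM in C75S, and all 9 WT and 5 of 6 C75S UMIs of Cftr lie in bins 1 and 2.

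The sections were also compared within each axis bin. The bins were cut within each section, so a bin need not cover the same part of the axis in both. Bin 1 began at a ratio of 0.649 in WT and 0.664 in C75S, while bin 5 ended at 0.0606 and 0.0865. The part of these cut points in the differences by bin was not tested. The log2 ratio of C75S over WT for Spp1 was -0.79 in bin 1 (-0.90 to -0.68), -0.30 in bin 2 (-0.41 to -0.19), -0.70 in bin 3 (-0.88 to -0.52), 0.16 in bin 4 (-0.05 to 0.36) and 0.27 in bin 5 (0.0029 to 0.55). Spp1 was thus lower in bins 1 to 3 of C75S, while in bin 5 its interval lay just above 0. For Krt7 it was -1.16 in bin 1 (-1.86 to -0.49) and -1.29 in bin 2 (-2.01 to -0.61), and the intervals of bins 3 to 5 included 0. Epcam was at -0.71 in bin 1 (-1.17 to -0.25), at -0.35 in bin 2 (-0.83 to 0.14) and at -0.80 in bin 3 (-1.62 to -0.03), and its intervals in bins 4 and 5 included 0. Krt19 had values of -0.64, -0.79 and -1.84 in bins 1 to 3, and every interval it had included 0. Sox9, whose interval over the whole sections included 0, was at -0.39 in bin 1 (-0.75 to -0.03) and at 0.56 and 0.51 in bins 4 and 5, whose intervals included 0. On spots with none of the other 5 genes, Spp1 still went from 74.3 CPM in bin 1 to 24.6 CPM in bin 5 of WT. In C75S it went from 62.5 to 28.8 CPM, so the Spp1 gradient was also met outside duct-gene spots. Split in the same way, Sox9 went from 10.7 to 2.53 CPM in WT and from 5.68 to 1.90 in C75S. Epcam went from 5.06 to 0.996 CPM and from 3.77 to 1.07. The C75S intervals of bins 1 and 5 overlapped for both. Krt7 had 2 UMIs in bin 1 and 2 in bin 5 of WT, and 3 and 2 in C75S. Whether such spots held duct was not tested.

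Other genes of the bile duct shared the duct-gene spots. Against all other spots, 9 of 14 biliary structure genes with at least 100 UMIs were at least 2-fold higher in WT (median log2 ratio 2.25) and 6 of 11 in C75S (1.15), while 4.87% of 10436 and 2.21% of 10306 other genes were that much higher, with medians of 0.11 and 0.02. Ehf, an ETS factor of epithelia, was at 25.3 against 1.64 CPM in WT (log2 ratio 3.95, lower bound 3.43) and at 10.4 against 1.17 CPM in C75S (3.15 on 63 UMIs). Tspan8, a tetraspanin, had log2 ratios of 3.73 and, on 61 UMIs, 3.33, and Cldn7, a tight junction protein, 3.70 and, on 82 UMIs, 3.16. The 100 UMIs were counted over all spots, duct-gene spots included, so a sparse gene can pass through its UMIs on those spots. In WT, Ehf had 130, Tspan8 108 and Cldn7 164 UMIs in all, and the counts past 2-fold include such genes. Krt8, a keratin that hepatocytes also express, was lowest of the list at 0.23 and -0.03. Of the transport and receptor genes 1 of 6 was 2-fold higher in WT and 0 of 5 in C75S. That 1 was the sodium-glucose cotransporter Slc5a1 (2.89 on 114 UMIs in WT, and 2.57 on 97 UMIs in C75S). The lowest in WT was Car2, a carbonic anhydrase (-0.15, and 0.02 in C75S). This list has 11 genes, and those with fewer than 100 UMIs in WT were not counted there. Their WT log2 ratios ran from 1.87 to 4.17 on 6 to 68 UMIs, not all with an interval above 0. In C75S, on fewer UMIs still, not all of them were higher. Of the regulators, 3 of 11 were higher in WT and 1 of 11 in C75S. Among them were Ccn2, a matricellular target of YAP (2.72 and 1.43), and, past 2-fold in WT only, Jag1, a Notch ligand (1.81 and 0.80), with Ccn1 the lowest in WT at 0.01 (-0.07 in C75S).

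Genes of fibroblasts, smooth muscle, vessels and leukocytes were in part also higher on these spots. They did not all lie on the portal side of the axis. The log2 ratio of bin 1 to bin 5 was 2.63 in WT and 1.65 in C75S for Mgp, but -0.61 and -0.20 for Vwf. Of the portal fibroblast matrix, 11 of 12 genes were at least 2-fold higher in WT (median 2.99) and 6 of 10 in C75S (1.84), and the summed level of the list was 1441 against 279 CPM and 544 against 259 CPM. Over single duct-gene spots it ran from 68.8 through a median of 634 to 27132 CPM in WT. In C75S it ran from 32.3 through 456 to 5049 CPM. On all other spots the median of the list was 211 CPM in WT and 228 CPM in C75S. Col1a1, a chain of type I collagen, led it in WT (log2 ratio 3.63, and 2.36 in C75S), with Mfap4, a microfibril protein (3.47, and 2.75 on 78 UMIs), and Mgp, an inhibitor of calcification (3.40 and 2.94), while Dcn, the proteoglycan decorin, was lowest (0.48 and -0.07). Of smooth muscle genes 5 of 5 were higher in WT and 2 of 3 in C75S, led by Acta2 (2.59, and 2.02 on 37 UMIs), Myh11 (2.52, and 1.85 on 41 UMIs) and Tagln (2.29 and 1.84), with Des the lowest (1.32 and 0.65). Of vessel endothelium 2 of 5 were higher in both, Cd34 (2.94 and 1.82) and Vwf (1.76 and 1.42), and Eng was lowest (-0.09 in both). MHC class II and leukocyte genes were higher for 4 of 6 and 3 of 6, led by H2-Eb1 (1.64 and 1.5), H2-Ab1 (1.5 and 1.39) and H2-Aa (1.36 and 1.19), with Ptprc the lowest (0.35 and 0.39).

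By their medians, Kupffer and stellate cell genes were at similar or lower levels on these spots. The medians were -0.37 and -0.19 for Kupffer cells and -0.08 and -0.04 for stellate cells, against 0.11 and 0.02 over other genes. None of the 6 genes of either list was 2-fold higher in either section, as 4.87% of other genes were in WT and 2.21% in C75S. With so small a share, 6 genes cannot show a difference from it. Marco was the lowest Kupffer gene (-0.44 and -0.39) and Ecm1 the lowest stellate gene in WT (-0.37 and -0.20). Rgs5 was the highest stellate gene (0.38 and 0.40), with an interval of 0.04 to 0.70 in WT and -0.03 to 0.80 in C75S. Of the lipid-associated macrophage genes, 1 of 3 was higher in WT (Cd9, 1.09 and 0.72) and 0 of 3 in C75S, with Fabp5 the lowest (-0.26 and -0.38). Of the mesothelium genes only Gpm6a reached 100 UMIs, with 105 in WT, duct-gene spots included. Its log2 ratio was 2.69 in WT (12.1 against 1.87 CPM) and -0.21 on 62 UMIs in C75S. The summed level of the mesothelium list on single duct-gene spots had a median of 0 in both sections. Periportal hepatocyte genes had medians of 0.50 and 0.49, none of the 6 being 2-fold higher, led by Sds (0.79 and 0.55). The 5 pericentral genes had medians of -1.10 and -0.75, with Slc1a2 the lowest in WT (-1.23, and -0.64 in C75S). Axin2, at -0.26 and -0.42, had intervals that included 0. Shares of all genes with intervals apart from 0 or 2-fold lower were not counted, so no counts by these rules are given. The part of each cell type in the counts of these spots was not tested.

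**Figure D5:**
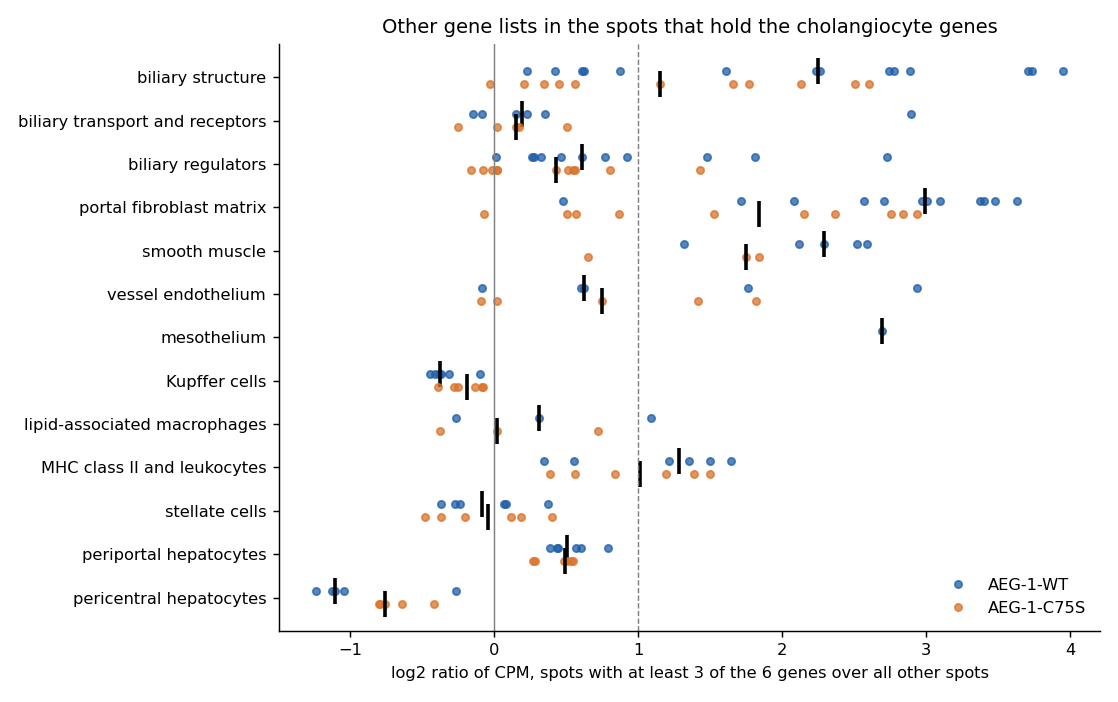
Log2 ratio of CPM on spots with at least 3 of the 6 cholangiocyte genes over all other spots (horizontal) for the genes of 13 lists (rows) in WT (blue) and C75S (orange), 1 point per gene with at least 100 UMIs in the section, black ticks at the medians and a dashed line at 2-fold. Biliary structure, portal fibroblast matrix and smooth muscle lie to the right with WT medians of 2.25, 2.99 and 2.29, and pericentral hepatocyte genes lie to the left.

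The genes whose pattern over spots was most like that of the set came in part from the same lists. Likeness was the correlation across spots of a gene's deviation from the depth of the spot with the summed deviations of the 6 genes, and the lower value of the 2 sections was kept. It is given as a description over 2309 and 2163 spots that share a library and a depth scale. Over 10215 genes with at least 100 UMIs in each section its median was -0.003 and its 99th percentile 0.14. Sparser genes, Ehf, Tspan8 and Cldn7 among them, could not enter this ranking. The 10 genes with the highest likeness ran from 0.46 to 0.31. They were Scara3, a scavenger receptor family member (0.46), Gsn (0.41), Mgp (0.39), Clu (0.38), Col3a1 (0.37), Dpt (0.37), Anxa5 (0.34), Lamc3 (0.34), Gas6 (0.34) and Bicc1 (0.31). Gsn, Mgp, Col3a1 and Dpt belong to the portal fibroblast matrix list and Bicc1 to the biliary structure list, while the other 5 are in no list. Scara3 was at 44.0 CPM on duct-gene spots against 4.39 CPM elsewhere in WT and at 30.5 against 3.04 CPM in C75S. Clu, which hepatocytes also express, was at 1527 against 1075 CPM and 1479 against 1113 CPM, a log2 ratio of 0.51 and 0.41. By the same measure against the other 5, the members were at 0.73 in WT and 0.58 in C75S for Spp1, 0.61 and 0.41 for Epcam, 0.63 and 0.28 for Krt7, 0.49 and 0.37 for Sox9, 0.46 and 0.13 for Krt19, and 0.35 and 0.09 for Cftr.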

How the data were processed

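RNA of formalin-fixed liver sections was counted with the 10x Visium probe assay. The authors made the deposited UMI count tables with Space Ranger 2.0.1 (mm10 reference), and each deposited table holds raw counts of 19465 genes on spots under tissue. Seurat 4.3.0 is also named in the submitters' processing notes. No column of another sample was present (0 columns). Spots with more than 50000 UMIs were left out, as in the study. Spot positions were not used here, and 1896 spot barcodes occur in both sections, as slides share a barcode set. Of 11 repeated symbols the first entry was used.

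Counts were summed over spots and divided by their total (CPM). Intervals at 95% are exact Poisson for sums and exact binomial (Clopper-Pearson) for shares and for ratios of levels. For pairs of genes, the exact Poisson interval of the shared spots was divided by the expected number, taken as fixed. All intervals cover counting error only. With 1 section per genotype no test was made. A fold against 0 uses 3 UMIs for the 0 and leaves out the counting error of the other count. Backgrounds use genes with at least 100 UMIs, and called means past a fixed size (a log2 difference of 0.32 between sections, 2-fold otherwise, excess squared CV of 1). Thinning drew 5000 UMIs per spot (seed 1), leaving out 6 WT and 17 C75S spots. Python 3.11.15, numpy 2.4.6, scipy 1.17.1, pandas 2.3.3 and edgeR 4.0.16 (TMM factors only) were used, and the scripts were tested on simulated data.

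All 6 members are named, and of 13 lists (106 of 108 genes in the tables) at most the 3 farthest above and the 1 farthest below in co-detection spots among genes with at least 100 UMIs, besides the 10 genes of highest likeness. Of the genes this rule names, 1 is not reported here. Acta2 is also named for its level per section, and Clu and Scara3 with levels, chosen after their values were seen. The members and lists were chosen with earlier results of these data known. The 23 alternatives concerned the spot filter, spot weights, scaling, depth, thresholds, the axis and the spots that carry the genes, and 1 (excess squared CV without the 3 highest spots) was chosen once the data were known.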

Additional observations from a re-analysis of the deposited data

Results flagged for a closer look

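The spots left out for more than 50000 UMIs, 7 in WT and 4 in C75S, enter no comparison but held UMIs of the 6 genes above the 3 that a count of 0 allows. Spp1 had 110 UMIs on the WT spots, 87 of them on 1 spot, which is 296 CPM (243 to 357) against 108 CPM on the spots kept. It had 65 UMIs on the C75S spots, 47 of them on 1 spot, which is 298 CPM (230 to 380) against 80.4 CPM. Epcam had 4 UMIs on the WT spots, all on 1 spot, and Krt7 had 4 UMIs on the WT spots and 4 UMIs on the C75S spots. Krt19, Sox9 and Cftr had at most 3 UMIs there in either section.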

How the results depend on the processing

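No paired analysis was possible because there was 1 section per genotype. The median log2 ratio of the members between sections stayed below 0, from -0.51 to -0.21, without the spot filter, with equal weight per spot, under 3 other scalings and without the top 1% of spots by member UMIs. Equal weight per spot took Spp1 to -0.28, Epcam to -0.14 and Cftr to 0.08, all short of the fixed size of 0.32. The median turned to 0.12 without spots with at least 3 members, where Epcam was at 0.13 and Krt19 at 0.17, while Krt7 was at -0.50 and Spp1 at -0.09. Those spots are chosen by the genes themselves and are more numerous in WT. The number of spots with at least 3 members changed with its definition, from 113 and 66 to 381 and 354 for at least 2 members, 38 and 13 for at least 4, 39 and 13 for at least 3 of the 5 other than Spp1, and 21 and 11 at 5000 UMIs per spot. For at least 2 members the shares of spots were 16.5% in WT and 16.4% in C75S, against 4.89% and 3.05% for at least 3. Thinning raised the median share of UMIs in the top 5% of spots from 81.7% and 86.4% to 100% in both sections, since fewer spots then had a UMI. The median log2 ratio of axis bin 1 to bin 5 was 2.10 in WT without spots with at least 3 members, against 2.98, and otherwise 2.61 to 3.77, and 1.53 to 2.57 in C75S. Without the 3 highest spots, chosen after seeing the data, the excess squared CV of Krt19 in C75S was -0.97, against 1.51. Depth limits Cftr (9 and 6 UMIs) and Krt19 (62 and 38) most.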
